A study of Mus musculus with 6 samples.

Results

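The 10 genes described here mark the epithelial or the mesenchymal state of a cell. They are the cadherin genes Cdh1 and Cdh2, the epithelial adhesion gene Epcam, the mesenchymal filament and matrix genes Vim and Fn1, and the transcription factor genes Snai1, Snai2, Zeb1, Zeb2 and Twist1. They were chosen by symbol from the 21720 genes of the deposited table, and 10 of 10 were found there and passed the filter on low counts. The libraries came from subcutaneous tumours of H22, a mouse hepatocellular carcinoma cell line, grown in female BALB/c mice. Gavage began once tumours measured about 50 mm3 and went on for 21 days. Mice of the control group were given 0.5% carboxymethyl cellulose sodium once a day, and those of the luteolin group were given luteolin, a flavonoid from plants, at 200 mg/kg, each in 0.2 mL. The label of all libraries gives the genotype as wild type (WT). Each group had 3 libraries, and neither the labels nor the methods say that each came from a separate mouse, so p values measure the spread between these libraries only. The tumours were sequenced whole, so H22 cells and host cells were read together, and a change in the number of cells of a type cannot be told apart from a change of RNA per cell.

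Epithelial cells are held together by E-cadherin, the product of Cdh1, which binds the same protein on the neighbouring cell and is anchored to actin through catenins. In the epithelial-mesenchymal transition (EMT), known from embryos, wound repair and carcinomas, these junctions are dissolved and cells take on vimentin filaments, fibronectin matrix and often N-cadherin, the product of Cdh2. The factors of the SNAIL, ZEB and TWIST families bind E-box sequences and are known to repress Cdh1. Many of these genes are also used by normal host cells: vimentin, fibronectin, Zeb2 and Twist1 are found in fibroblasts or leukocytes, and Cdh1 and Epcam in skin and other epithelia.

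Total counts ranged from 61081637 to 80442954 per library. Levels are given as CPM, the count as a part of the library total after TMM normalization, which scales libraries to each other by the bulk of their genes. A list of 12 skin keratinocyte genes stood apart in luteolin replicate 2, with a summed level of 9335 CPM, against 406 in luteolin replicate 1, 21.8 in luteolin replicate 3 and 14.4 to 18.6 in the control libraries. Of these 12 genes, 8 had 0 counts in every control library, and Krt14 and Krt5 were above 0 in each luteolin library. Results that touch this list are therefore given with and without luteolin replicate 2. Of the hepatocyte and hepatoma genes listed for the labelled tumour type, Afp, the alpha-fetoprotein gene, was present in all libraries. It had 43.4 to 66.7 CPM in the control libraries and 32.7 to 41.8 CPM in the luteolin libraries. Hnf4a of that list did not exceed 0.327 CPM, and the liver regulator genes Foxa1 and Foxa2, taken from a list of epithelial-fate regulators, had 0 counts throughout. These regulator genes were thus absent or nearly so, but the list as a whole was not. Alb ranged from 0.868 CPM in control replicate 3 to 133 CPM in luteolin replicate 1. Gpc3 had 0.633 to 1.30 CPM in the control libraries and 3.13 to 9.34 CPM in the luteolin libraries, while Ttr did not exceed 0.392 CPM. Of the 9 tested genes of that list, 1 (Gpc3) lay above all controls in every luteolin library and 1 (Afp) below, against 15.9% and 12.8% of all genes.

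By the quasi-likelihood test of edgeR, 0 of the 10 genes had an adjusted p under 0.05, against 1.34% of the 14963 genes tested that were higher in the luteolin group and 0.187% that were lower at that threshold. At an unadjusted p under 0.05, 3 of the 10 passed, Cdh1 in the upward direction (14% of all genes) and Epcam and Twist1 in the downward one (6.44%). DESeq2 called these same 3 genes at an adjusted p under 0.05, 1 higher (9.58% of all genes) and 2 lower (2.58%). The voom method of limma with sample quality weights called Cdh1, Vim and Zeb2 higher (12.6% of all genes) and Epcam and Twist1 lower (8.76%). The threshold used in the study, a fold change over 2 at an unadjusted p under 0.05, was met by 1 gene, Cdh1, in the upward direction, where 11.3% of all genes met it, and by 0 in the downward direction, where 1.52% did. The p values of DESeq2 gave the same counts, 1 and 0, against 11.5% and 1.61% of all genes. In Cdh1 and Vim all luteolin libraries lay above all control libraries (2 of 10, against 15.9% of all genes), and in Epcam and Twist1 all lay below (2 of 10, against 12.8%). The groups overlapped in the other 6. The median log2 fold change of the 10 was 0.11, beside -0.01 over all genes tested. The epithelial pair Cdh1 and Epcam lay on opposite sides of the control range, and the fold changes of the mesenchymal pair Vim and Fn1 had opposite signs.

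**Figure D1:**
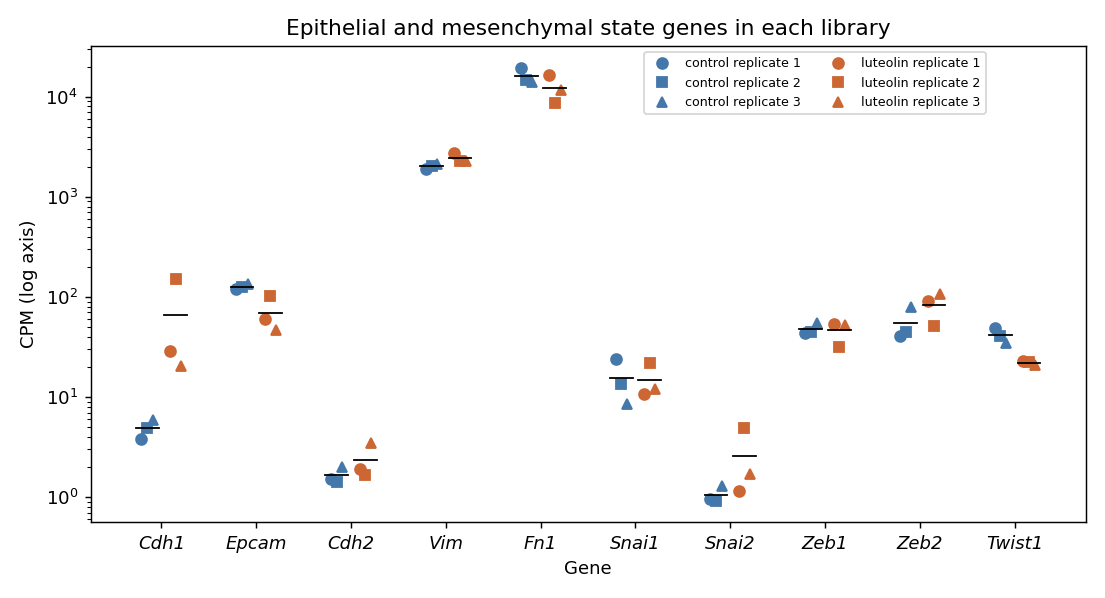
Level of each of the 10 genes in each library, in CPM on a log axis, with 1 symbol per library and a black bar at each group mean. The luteolin libraries lie above the controls in Cdh1 and Vim and below them in Epcam and Twist1, and Fn1 is the highest gene in every library.

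The largest difference among the 10 was in Cdh1. Its level was 3.83, 4.91 and 5.94 CPM in control replicates 1, 2 and 3 and 28.6, 151 and 20.3 CPM in luteolin replicates 1, 2 and 3. Every luteolin library was above every control library, and luteolin replicate 2 stood far above the other luteolin libraries. The group means were 4.90 ± 1.05 and 66.5 ± 72.9 CPM (SD, n = 3 each), which gave a log2 fold change of 3.76 with a standard error (SE) of 0.81 (adjusted p = 0.0758 in edgeR). Over the alternatives in processing this log2 fold change ranged from 2.34 to 4.12 and its adjusted p from 1.32e-06 to 0.303. Without luteolin replicate 2 it was 2.34 (SE 0.27, adjusted p = 0.0244 in edgeR), with smaller size and less spread. The order of the luteolin libraries in Cdh1 was also their order in the summed keratinocyte genes, and the part of skin tissue in this result was not tested. In luteolin replicate 3 the sum of the 12 genes was 1.17 times that of the highest control library. Most of the control sums was Ivl, the involucrin gene, which had 9.31 to 13.7 CPM in the control libraries and 4.40 CPM in luteolin replicate 3. Without Ivl, a choice made after its values were seen, the sum of the other 11 genes was 4.09 to 5.08 CPM in the control libraries and 401, 9282 and 17.4 CPM in luteolin replicates 1, 2 and 3. In luteolin replicates 1, 2 and 3 the sum of the 11 genes was 85.5, 1977 and 3.71 times its control mean. With Ivl, the sum of the 12 genes was 24.6, 565 and 1.32 times its control mean, and Cdh1 was 5.85, 30.8 and 4.14 times its control mean.

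Epcam, which encodes a cell-surface adhesion molecule of simple epithelia and carcinomas, lay on the other side of the controls. It had 119, 127 and 135 CPM in control replicates 1, 2 and 3 and 60.9, 102 and 46.6 CPM in luteolin replicates 1, 2 and 3. The control libraries lay close together and all luteolin libraries lay below them, luteolin replicate 2 being nearest to the control range. The means were 127 ± 7.92 and 69.8 ± 28.7 CPM (SD, n = 3 each), and the log2 fold change was -0.86 with a standard error of 0.29 (adjusted p = 0.169 in edgeR). Luteolin replicate 2, the library with the most keratinocyte RNA, also had the highest Epcam level of its group. Without that library the log2 fold change was -1.22 (SE 0.18, adjusted p = 0.0313 in edgeR), and Cdh1 and Epcam were the members called, 1 higher (1.82% of all genes) and 1 lower (0.238%). In a fit with offsets for GC content and gene length, which takes out the part of each library's deviations that follows base composition, Cdh1 had a log2 fold change of 3.67 (adjusted p = 0.0432) and Epcam of -1.02 (adjusted p = 0.0429).

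**Figure D2:**
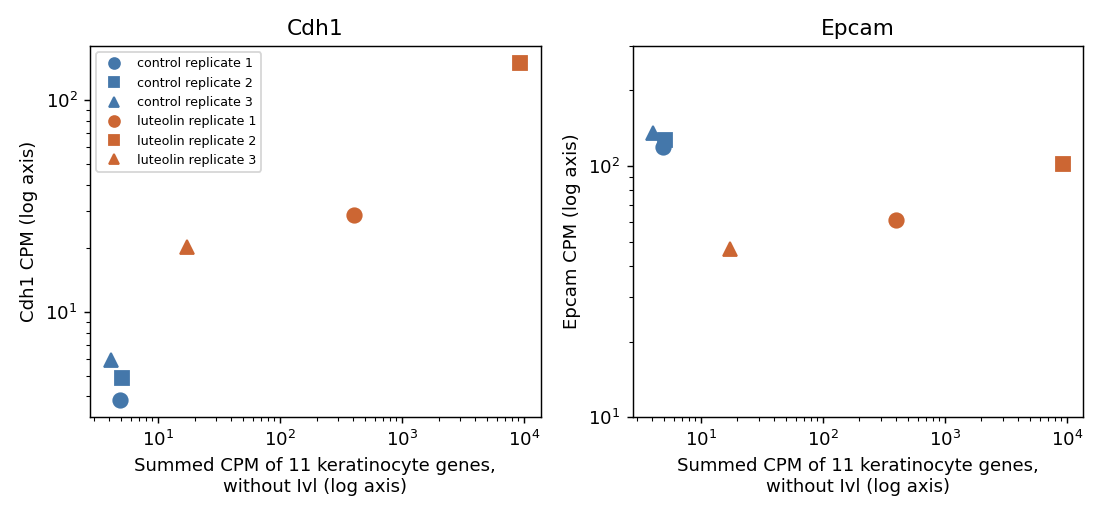
Cdh1 (left) and Epcam (right) in CPM against the summed CPM of 11 keratinocyte genes (the list without Ivl), 1 symbol per library, all axes logarithmic. All luteolin libraries lie to the right of the controls (17.4 CPM or more against 4.09 to 5.08), above them in Cdh1 and below them in Epcam, and both genes are highest among the luteolin libraries in replicate 2.

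The ratio between Cdh1 and Epcam differed from the controls in each luteolin library. As a level per kb of exon, Epcam exceeded Cdh1 by a log2 ratio of 5.56 to 6.01 in the control libraries. In luteolin replicates 1, 2 and 3 the log2 ratio of Cdh1 to Epcam was -2.15, -0.50 and -2.26, against -6.01, -5.75 and -5.56 in control replicates 1, 2 and 3. This ratio does not depend on how libraries were scaled to each other. Its groups could not overlap, since every luteolin library lay above the controls in Cdh1 and below them in Epcam. The separation of the ratio is therefore no further support. Its mean was higher in the luteolin group by 4.14 on the log2 scale.

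Cdh2, the N-cadherin gene of neural and mesenchymal cells, was the lowest of the 10 per kb in every library. It had 1.52, 1.42 and 2.02 CPM in control replicates 1, 2 and 3 and 1.89, 1.68 and 3.49 CPM in luteolin replicates 1, 2 and 3, from 92 to 223 counts. The groups overlapped, with luteolin replicate 3 the highest (log2 fold change 0.51, SE 0.46, adjusted p = 0.590 in edgeR). Cdh1 exceeded Cdh2 per kb already in the control libraries, by a log2 ratio of 2.16 to 2.61, and by 4.74, 7.31 and 3.36 in luteolin replicates 1, 2 and 3. Cdh2 RNA per kb thus exceeded Cdh1 RNA in 0 of the 6 libraries. These are RNA levels of whole tumours with host cells, so they cannot show whether H22 cells had made a cadherin switch.

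Vim encodes vimentin, the intermediate filament of mesenchymal cells and leukocytes. Its level was 1917, 2051 and 2105 CPM in control replicates 1, 2 and 3 and 2748, 2262 and 2278 CPM in luteolin replicates 1, 2 and 3. The groups did not overlap, but the gap was small: luteolin replicate 2 was at 1.12 times the control mean, and luteolin replicate 3 at 1.13 times. The log2 fold change was 0.26 with a standard error of 0.13 (adjusted p = 0.322 in edgeR). Vim was among the 22 genes with the highest counts in each library.

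Fn1 encodes fibronectin, a matrix and plasma glycoprotein bound by integrins. It had the highest count of any gene in 5 of the 6 libraries and took from 0.892% to 1.97% of all counts. The level was 19527, 14714 and 14078 CPM in control replicates 1, 2 and 3 and 16342, 8585 and 11578 CPM in luteolin replicates 1, 2 and 3. Luteolin replicates 2 and 3 lay below the controls, and luteolin replicate 1 lay within their range. The difference was -0.40 on the log2 scale with a standard error of 0.25 (unadjusted p = 0.153, adjusted p = 0.426 in edgeR). The SD of log2 CPM within groups was 0.375. In edgeR the unadjusted p was 0.0439 with a block for the replicate number (adjusted p = 0.313) and 0.0203 without luteolin replicate 1 (adjusted p = 0.224). Other alternatives gave smaller differences, with log2 fold changes of -0.19 without luteolin replicate 2 (unadjusted p = 0.385 in edgeR) and -0.03 under voom (unadjusted p = 0.872). Over all 15 alternatives it ranged from -0.68 to -0.03, and the adjusted p was under 0.05 in 0 of them.

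Among the transcription factors, Twist1, a basic helix-loop-helix factor of mesoderm, separated the groups. It had 48.8, 40.4 and 34.5 CPM in control replicates 1, 2 and 3 and 22.9, 22.4 and 20.9 CPM in luteolin replicates 1, 2 and 3. All luteolin libraries lay below all controls and within 1.09-fold of each other, the narrowest luteolin range of the 10 genes. The means were 41.2 ± 7.18 and 22.1 ± 1.02 CPM (SD, n = 3 each), and the log2 fold change was -0.90 with a standard error of 0.18 (adjusted p = 0.0681 in edgeR), the smallest p of the 10. It stayed between -1.02 and -0.79 over all alternatives, with adjusted p values from 4.33e-04 to 0.286, and without luteolin replicate 2 it was -0.90.

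The 250 bases before the start sites are shown for Epcam, Twist1 and Vim, the genes without overlap between the groups that the RefSeq promoter table (GRCm38.p6) holds. E-boxes, the sequences that SNAIL and ZEB factors bind, were looked for in them. Capitals mark the E-box CACCTG and its reverse complement CAGGTG, so that both strands were searched. The windows lie on the plus strand at chr17:87635729-87635978, chr12:33957421-33957670 and chr2:13574061-13574310.
Epcam: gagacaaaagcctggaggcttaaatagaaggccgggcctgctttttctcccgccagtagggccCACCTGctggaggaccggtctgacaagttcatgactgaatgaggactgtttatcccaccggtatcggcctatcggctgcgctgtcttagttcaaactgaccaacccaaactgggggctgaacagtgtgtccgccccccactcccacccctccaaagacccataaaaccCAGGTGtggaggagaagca
Twist1: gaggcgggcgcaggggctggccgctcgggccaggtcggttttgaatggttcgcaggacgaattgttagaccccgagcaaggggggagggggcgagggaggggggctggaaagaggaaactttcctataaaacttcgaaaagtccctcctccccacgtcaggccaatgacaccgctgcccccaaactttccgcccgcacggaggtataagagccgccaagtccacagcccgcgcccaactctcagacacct
Vim: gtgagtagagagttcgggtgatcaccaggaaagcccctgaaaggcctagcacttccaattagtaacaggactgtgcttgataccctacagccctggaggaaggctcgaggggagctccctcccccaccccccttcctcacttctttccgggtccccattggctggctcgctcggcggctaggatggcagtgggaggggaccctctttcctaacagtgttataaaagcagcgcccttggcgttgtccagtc
The Epcam window holds 2 matches, which begin 187 and 19 bases before the start. At least 2 matches were found in 2.06% of the 32851 windows of that length in the table. The Twist1 and Vim windows hold 0. Of the other members with a window, Snai1 holds 1 match, 126 bases before the start, and the windows of Zeb2 hold 0. At least 1 match was found in 17.2% of all windows. A match is a run of letters and was not measured as a binding site.

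Snai1 and Snai2, which encode the zinc-finger repressors SNAIL and SLUG, overlapped between the groups. Snai1 had 24.1, 13.4 and 8.58 CPM in control replicates 1, 2 and 3 and 10.7, 22.0 and 11.9 CPM in luteolin replicates 1, 2 and 3, with a log2 fold change of -0.05 (SE 0.45, adjusted p = 0.970 in edgeR). Its control libraries alone spanned 2.81-fold, the widest control range of the 10. Snai2 was scarce, with 60 to 83 counts in the control libraries. Its level was 0.959, 0.927 and 1.29 CPM in control replicates 1, 2 and 3 and 1.16, 4.94 and 1.72 CPM in luteolin replicates 1, 2 and 3. Luteolin replicate 2 stood alone, and the log2 fold change of 1.30 (SE 0.63, adjusted p = 0.304 in edgeR) was 0.46 without it.

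Zeb1 and Zeb2 encode 2 related zinc-finger homeodomain repressors. Zeb1 had 43.5, 44.7 and 54.5 CPM in control replicates 1, 2 and 3 and 54.0, 31.9 and 53.0 CPM in luteolin replicates 1, 2 and 3, with a log2 fold change of -0.04 (SE 0.24, adjusted p = 0.953 in edgeR) whose sign turned in 5 of 15 alternatives. Zeb2 had 40.9, 44.5 and 78.9 CPM in control replicates 1, 2 and 3 and 90.4, 51.3 and 108 CPM in luteolin replicates 1, 2 and 3. Control replicate 3 lay above luteolin replicate 2, so the groups overlapped (log2 fold change 0.60, SE 0.36, adjusted p = 0.399 in edgeR). The libraries also differed in base composition. Across 14635 genes, which are not independent replicates, Spearman's rho between GC content and the deviation of log2 CPM from the mean of the 6 libraries was positive in control replicate 1 (0.42) and luteolin replicate 2 (0.43). It was negative in control replicates 2 (-0.17) and 3 (-0.52) and in luteolin replicates 1 (-0.18) and 3 (-0.36). Zeb2 has the lowest GC content of the 10 (40.6%) and Snai1 the highest (59.8%). Snai1 was highest, and Zeb2 low within its group, in control replicate 1 and luteolin replicate 2, the libraries with a positive correlation. Other members of like GC content did not follow this. Twist1 (59.3%) had 22.4 CPM in luteolin replicate 2 and 22.9 CPM in luteolin replicate 1, and Snai2 (42.6%) was highest in luteolin replicate 2. The part of base composition in the levels of these genes was not tested. With offsets for GC content and length, Zeb2 was 50.0, 42.0 and 51.8 CPM in control replicates 1, 2 and 3 and 83.6, 85.4 and 92.5 CPM in luteolin replicates 1, 2 and 3, and the groups no longer overlapped. The offsets were fitted on these same 6 libraries, and the share of all genes without overlap after them is not given here. The SD of log2 CPM within groups changed from 0.54 to 0.13 for Zeb2, from 0.66 to 0.33 for Snai1 and from 0.18 to 0.26 for Twist1. It also rose for Snai2 (0.79 to 0.99) and Fn1 (0.375 to 0.420) and fell for Zeb1 (0.33 to 0.18) and Epcam (0.41 to 0.31). The change was smaller for Cdh1 (1.12 to 1.07), Vim (0.123 to 0.119) and Cdh2 (0.444 to 0.445). In that fit the log2 fold change was 0.86 for Zeb2 (SE 0.12, adjusted p = 0.0174 in edgeR) and -0.15 for Snai1 (adjusted p = 0.748), and the adjusted p of Twist1 was 0.0336. With the offsets 2 of the 10 genes were called higher (Cdh1 and Zeb2), where 4.53% of all genes were, and 2 lower (Epcam and Twist1), where 1.56% were.

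**Figure D3:**
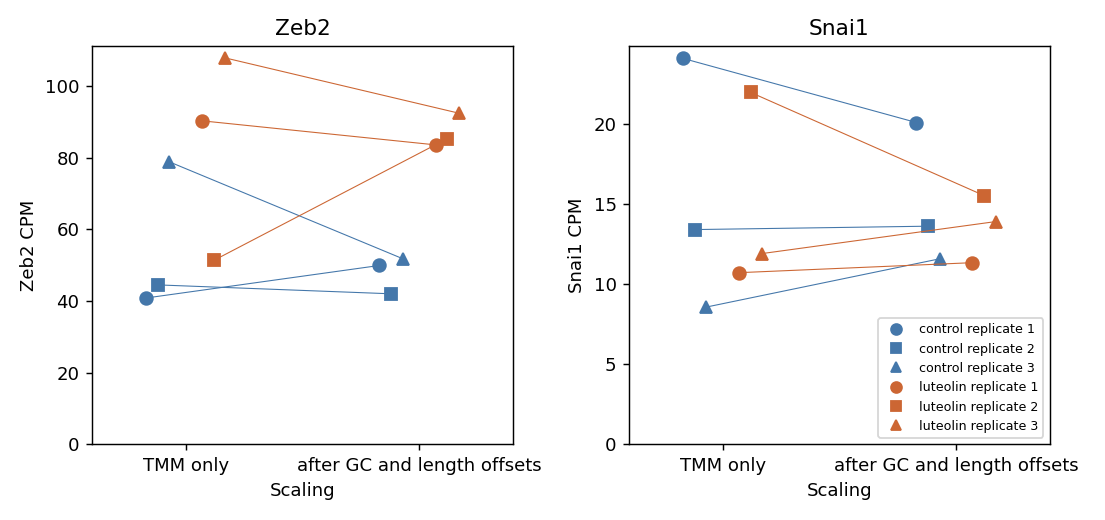
Zeb2 (left) and Snai1 (right) in CPM in each library after TMM normalization alone and after offsets for GC content and gene length, lines joining the values of a library. After the offsets the Zeb2 values of the groups part (42.0 to 51.8 against 83.6 to 92.5 CPM), while those of Snai1 still overlap.

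**Figure D4:**
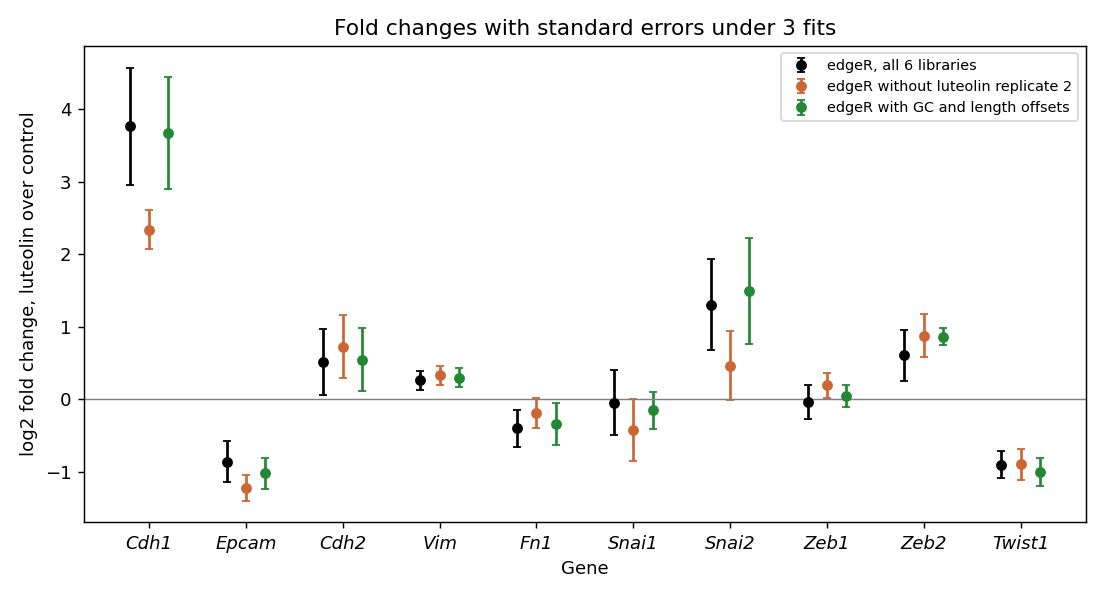
Log2 fold change (luteolin over control) of each gene with its standard error, from edgeR with all 6 libraries, without luteolin replicate 2, and with GC content and length offsets. Cdh1 is highest under each fit and falls from 3.76 to 2.34 without luteolin replicate 2, while Twist1 is at -0.90 with and without that library.

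Compared per kb of merged exon, the control levels fell in the order Fn1, Vim, Epcam, Twist1, Snai1, Zeb1, Zeb2, Cdh1, Snai2 and Cdh2, from 1378 ± 255 CPM per kb for Fn1 to 0.205 ± 0.040 for Cdh2 (SD, n = 3). Snai1 (9.48 ± 4.91 CPM per kb) and Zeb1 (4.63 ± 0.588) overlapped between libraries, and the other neighbours did not. With the longest transcript in place of merged exons the order was the same, and Zeb1 and Zeb2 overlapped as well. Fn1, Vim and Epcam lay at the 99.97, 99.6 and 95.7 percentiles of control levels per kb among 16315 genes with a length and a count in the controls, and Cdh1 at the 33.6 percentile. The control tumours thus held high Epcam beside high Vim and Fn1, with little Cdh1. In the luteolin group the mean of Cdh1 (14.5 ± 15.9 CPM per kb) ranked 4 of 10 in place of 8, between Epcam (31.8 ± 13.1) and Twist1 (13.5 ± 0.629). Its libraries overlapped with both, and in luteolin replicate 3 alone Cdh1 ranked 8, as in the controls.

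Wider lists of genes place these 10 among others of the same roles. The mesenchymal and matrix list, which contains Vim, Cdh2 and Fn1, had 26 tested genes. Of these, 8 rose and 0 fell at an adjusted p under 0.05 in edgeR (1.34% and 0.187% of all genes). At an unadjusted p under 0.05 they numbered 20 and 1 (14% and 6.44%), and DESeq2 called 16 and 1 (9.58% and 2.58%). In 19 of the 26 all luteolin libraries lay above all control libraries, against 15.9% of all genes. The median log2 fold change was 1.03, or 1.02 without luteolin replicate 2. Among the genes that rose were Tgfbi, a matrix protein induced by TGF-beta (log2 fold change 2.75), Tnc, which encodes tenascin C (2.11), Thy1, a surface glycoprotein of fibroblasts and T cells (2.07), Mmp2 (1.91) and Mmp14 (1.19), which encode matrix metalloproteinases, the collagen gene Col5a1 (1.66) and the fibrillin gene Fbn1 (0.99). Tgfbi had 49.0 to 60.3 CPM in the control libraries and 293, 573 and 210 CPM in luteolin replicates 1, 2 and 3. Tnc, Thy1 and Mmp14 are named as members of this count after their values were seen. The 3 members of the list described here were not among the genes that rose, and Fn1 had a negative fold change. So did S100a4, Fap and Axl (log2 fold changes of -0.77, -0.36 and -0.005), which are named after their values were seen. These calls are not stable to the loss of a library: with any 1 of the control libraries or luteolin replicate 1 left out, 0 genes of the whole table passed in edgeR, and 1907 to 2462 had an unadjusted p under 0.05.

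Over all genes tested, 1.34% were higher and 0.187% lower at an adjusted p under 0.05 in edgeR. At an unadjusted p under 0.05 the shares were 14% and 6.44%. DESeq2 called 9.58% higher and 2.58% lower, and voom 12.6% and 8.76%. The epithelial junction and polarity list, which contains Cdh1 and Epcam, had 30 tested genes of 33. At an adjusted p under 0.05 in edgeR 0 of them passed, 13 had an unadjusted p under 0.05 (10 higher and 3 lower), DESeq2 called 4 higher and 2 lower, and voom called 1 higher and 3 lower. The study's threshold was met by 10 genes in the upward direction (11.3% of all genes), and by 4 without luteolin replicate 2 (7.52%). The median log2 fold change was 1.07 with all libraries and 0.03 without luteolin replicate 2, which held the highest value of 18 of the 30 genes, against 34.0% of all genes tested. Ctnnb1 (beta-catenin), Dsp (desmoplakin) and Tjp1 (the tight junction protein ZO-1) had the highest levels of the list, with log2 fold changes of 0.06, 1.75 and -0.47. Dsp had 1470 CPM in luteolin replicate 2 and 142 to 195 CPM in the other 5 libraries. Dsp lay below the controls in luteolin replicate 3, where Cdh1 lay above them. In that library 8 of the 30 genes lay above all controls, or 26.7%, against 26.0% of all genes tested. Among 10 tested epithelial-fate regulators 0 passed in edgeR, 7 had an unadjusted p under 0.05, DESeq2 called 2 higher and 0 lower, and voom called 2 in each direction. The most abundant were Klf5, Klf4 and Esrp2, with log2 fold changes of 0.55, 0.89 and 1.06, and the median was 0.98, or 0.43 without luteolin replicate 2.

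**Figure D5:**
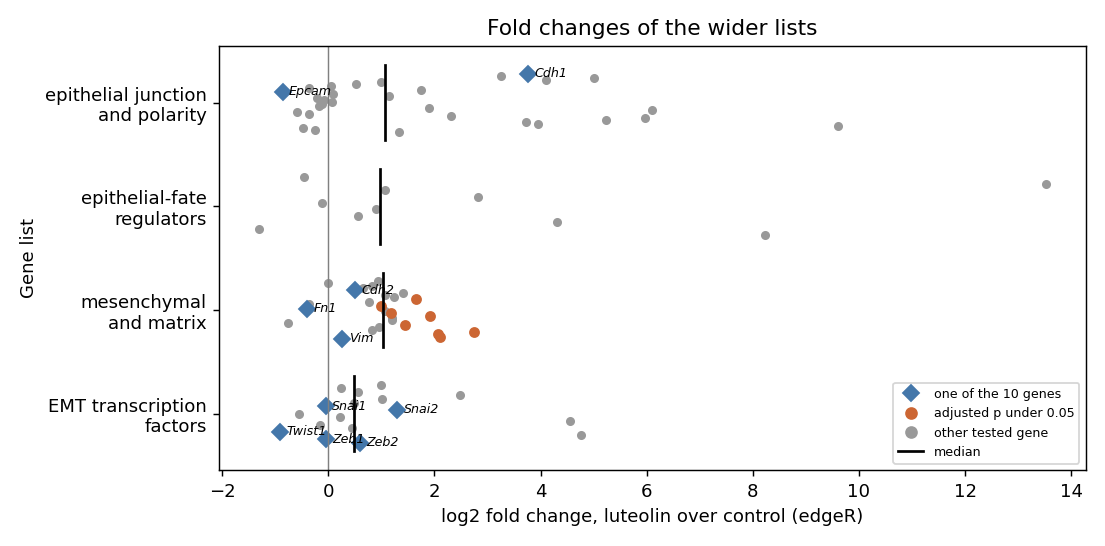
Log2 fold change of each tested gene (1 point per gene, luteolin over control, edgeR) in 4 lists, with the 10 genes as named diamonds, genes at an adjusted p under 0.05 in orange and a black line at each list's median. The mesenchymal list centres on 1.03 with Fn1, Vim and Cdh2 at its lower side, and Cdh1 and Epcam lie on opposite sides of the epithelial median of 1.07.

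Shares of all genes tested apply to the 3 lists that follow as well. They were 1.34% higher and 0.187% lower at an adjusted p under 0.05 in edgeR, and 14% and 6.44% at an unadjusted p under 0.05. DESeq2 called 9.58% higher and 2.58% lower, and voom 12.6% and 8.76%. The list of EMT transcription factors had 17 tested genes of 18. In edgeR 0 passed at an adjusted p under 0.05, 6 had an unadjusted p under 0.05 (Tcf4, Prrx1, Klf8, Sox9 and Twist2 higher and Twist1 lower), DESeq2 called 1 higher and 1 lower, and voom called 5 higher and 1 lower. The study's threshold was met by 4 genes in the upward direction (11.3% of all genes), and by 1 without luteolin replicate 2 (7.52%). Sox9 had 12.1 CPM in luteolin replicate 2, 0.327 and 0.720 CPM in luteolin replicates 1 and 3, and 0 to 0.494 CPM in the control libraries. The median log2 fold change was 0.49, or 0.46 without luteolin replicate 2. Sox4 and Tcf3, which with Zeb2 had the highest levels, had log2 fold changes of 0.21 and -0.15. Twist2, the close relative of Twist1, lay on the other side of 0: it had 0.243, 0 and 0 CPM in control replicates 1, 2 and 3 and from 0.579 to 4.87 CPM in the luteolin libraries (unadjusted p = 0.0240 and adjusted p = 0.179 in edgeR). Twist2 and the other genes of this list at an unadjusted p under 0.05 were named after their values were seen. Of 22 cadherin genes listed, 12 were tested and 0 passed in edgeR, with 3 at an unadjusted p under 0.05, 2 higher in DESeq2, and 3 higher and 1 lower in voom. Cdh13 and Cdh5 (vascular cadherin) had the highest levels beside Cdh1, with log2 fold changes of -0.08 and 0.67. Cdh3, the P-cadherin gene of basal epithelia, was named after its values were seen: it had 0.698 to 1.16 CPM in the control libraries and 1.98, 19.8 and 5.20 CPM in luteolin replicates 1, 2 and 3. Of 15 integrin genes that encode fibronectin and laminin receptors, 1 rose at an adjusted p under 0.05 in edgeR, Itgb3 (log2 fold change 1.35), and 0 fell. At an unadjusted p under 0.05 there were 6 higher and 1 lower, DESeq2 called 4 higher and 1 lower, and voom called 8 higher and 1 lower. Itga3, Itgb1 and Itga6, the most abundant of them, had log2 fold changes of -0.63, 0.10 and 0.50. Itga5, whose product with that of Itgb1 forms the classical fibronectin receptor, was singled out after its values were seen, with 73.9 to 98.8 CPM in the control libraries and 144 to 180 in the luteolin libraries (adjusted p = 0.0531 in edgeR).

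Markers of host cells that use these genes differed between the groups as well, and their part in the results above was not tested. Beside the calls below, 1.34% of all genes tested were higher and 0.187% lower at an adjusted p under 0.05 in edgeR. DESeq2 called 9.58% higher and 2.58% lower, and voom 12.6% and 8.76%. The summed level of 10 fibroblast genes was 1446 to 1608 CPM in the control libraries and 2093 to 5139 CPM in the luteolin libraries. Its most abundant genes Col3a1, Col1a1 and Col1a2 had log2 fold changes of 1.23, 1.41 and 1.06, and 1 gene, Pi16, rose at an adjusted p under 0.05 in edgeR (3.21), while DESeq2 called 8 of the 10 higher and voom 9. For 10 macrophage and monocyte genes the sums were 1768 to 2027 and 2315 to 3226 CPM, and for 8 T cell genes 14.6 to 16.0 and 49.2 to 92.3 CPM, with Cd68 (1.16) and Cd8a (2.51) at an adjusted p under 0.05 in edgeR. DESeq2 called 6 of the macrophage and 8 of the T cell genes higher, and voom 7 and 8. Endothelial genes (9) summed to 114 to 130 and 121 to 323 CPM, adipocyte genes (7) to 13.9 to 72.3 and 16.8 to 360 CPM, skeletal muscle genes (8) to 495 to 1141 and 257 to 1103 CPM, and hepatocyte and hepatoma genes (10) to 45.9 to 139 and 80.5 to 202 CPM, so these groups overlapped. At an adjusted p under 0.05 in edgeR, 0 of the endothelial, adipocyte, muscle, hepatocyte or keratinocyte genes passed. At an unadjusted p under 0.05 in edgeR, 14% of all genes tested were higher and 6.44% lower. There 2 of 9 tested endothelial genes and 9 of 10 keratinocyte genes were higher, and 0 of 6 adipocyte genes passed. Of 8 muscle genes 1 was higher and 1 lower, and of 9 hepatocyte genes 1 was higher and 1 lower. DESeq2 called 2 endothelial, 0 adipocyte, 0 muscle, 1 hepatocyte and 6 keratinocyte genes, all of them higher. Luteolin replicate 1 had the highest Vim level and luteolin replicate 2 the highest fibroblast sum, and a relation between the 2 was not tested.

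The genes whose log2 CPM followed Cdh1 most closely over the 6 libraries were Gimap6, Tpm3-rs7 and Msrb3, with a Pearson r of 1.00 each to 2 decimals. Gimap6 is a GTPase gene of lymphocytes, and Tpm3-rs7 has near-identical copies, so its count is uncertain. Vim was followed by Cmah, Ptgs2 (cyclooxygenase 2) and Nfkbiz (r = 0.97 each), and Zeb2 by Mitf, Prkx and Yipf5 (r = 0.99, 0.99 and 0.98). These values rest on 6 libraries that share the group difference, and they are a description only.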

How the data were processed

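H22 tumour RNA was measured by RNA-seq in 3 control and 3 luteolin libraries, grouped by their treatment labels, and 0 columns of the table were left out. The table deposited by the authors holds whole numbers for each gene symbol in each library, with totals that differ between libraries. They were taken to be estimated counts, because 44.8% of the values from 1 to 40 are multiples of 4. Per the labels the processing used bcl2fastq 2.0, HISAT2, StringTie and DESeq2 with the builds mm39 and rn6, as listed without roles in the submitters' processing notes. The annotation and counting settings are not given in the sources used here, and since that build differs from the reference, no positions were assigned to the counts.

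Counts were compared in R 4.3.3 with edgeR 4.0.16 (TMM, filterByExpr, quasi-likelihood test, no covariates) on 14963 genes, with two-sided p values adjusted by the Benjamini-Hochberg method over all of them. Standard errors are the log2 fold change divided by the root of its F statistic. Log2 CPM used a prior count of 2, and ratios between genes none. Lengths and GC content came from GENCODE M21 by symbol (21053 of 21720 genes). The alternatives were DESeq2 1.42.0, limma 3.58.1 (voom with sample quality weights), RLE and upper-quartile normalization, no filter, at least 10 counts in every library, values divided by 4, offsets from natural splines of GC content and length, a block for the replicate number, and the omission of each library in turn. The fits were also run on simulated counts without an outlying library or GC differences, so that run does not show how they behave on these data. The genes, lists and tests were chosen with earlier results of these data known. Named genes were the 10 members, the 3 most abundant genes of each list, up to 5 genes of a list with the smallest p among those at an adjusted p under 0.05, and the 3 genes (mean of at least 5 CPM) most like Cdh1, Vim and Zeb2. A gene that this rule names is not reported here. Intervals in depth cover counting error only, and the lowest count of a member was 60.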

Additional observations from a re-analysis of the deposited data

How the results depend on the processing

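The 10 log2 fold changes were recomputed under 15 alternatives each. At an adjusted p under 0.05 DESeq2 called 1 gene higher and 2 lower (of all genes 9.58% and 2.58%), and voom 3 and 2 (12.6% and 8.76%). The fit with GC content and length offsets called 2 and 2 (4.53% and 1.56%), where edgeR called 0 and 0 (1.34% and 0.187%). At the study's threshold voom gave 1 gene lower (498 of 14963 over all genes) and the offsets 2 (258 of 14635), against 0 (227 of 14963). With each library left out, the members at an adjusted p under 0.05 ranged from 0 to 1 in each direction. Those at the study's threshold ranged from 1 to 2 higher and from 0 to 1 lower. In these fits 15137 to 15530 genes were tested, of which 0 to 276 were higher and 0 to 36 lower at an adjusted p under 0.05. At the study's threshold 1139 to 2104 of them were higher and 140 to 305 lower. The 1 member called in each direction at an adjusted p under 0.05 came without luteolin replicate 2, for Cdh1 and Epcam. Of the 10 genes, 3 did not overlap upward without luteolin replicate 2 (chosen after seeing the data), Zeb2 being the added one, against 2, while the share of all genes went from 15.9% to 18.8%. Downward 2 did not overlap in either case (12.8% and 18.9%). The log2 fold change of Zeb1 changed sign under voom (0.21), upper-quartile normalization (0.0052), the offsets (0.045), and without control replicate 3 (0.07) or luteolin replicate 2 (0.19), and it ranged from -0.18 to 0.19 with each library left out. That of Snai1 did so under the replicate block (0.021) and without control replicate 1 (0.39), luteolin replicate 1 (0.14) or luteolin replicate 3 (0.03), and it ranged from -0.43 to 0.39. The cause was not tested. All other members kept their direction under the alternatives run. Replicate numbers did not pair the libraries: the correlations of same-numbered deviations were -0.20, -0.09 and 0.06, and not every library correlated best with its own number. With the replicate block 0 members were called, and the calls over all genes went from 200 higher and 28 lower to 34 and 1. Of the list counts, 128 of the alternative values lay more than 1.5 times away and 292 within. Depth limits Snai2 and Cdh2 most, with 60 to 413 and 92 to 223 counts per library.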
